A study of Penaeus vannamei with 11 samples.

Results

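Among the genes counted in shrimp hemocytes, 5 genes, 4 with zinc finger in their name and 1 named after the zinc finger protein Krüppel, were listed at 0 counts in 3 or more of 11 libraries and were clearly counted in the others. They are LOC113814387 (zinc finger protein 711-like), LOC113814388 (protein krueppel-like), LOC113814398 (zinc finger protein 710-like), LOC113808278 (zinc finger protein OZF-like) and LOC113820390 (zinc finger protein 260-like). They are 5 of the 18803 genes in the table, and they were chosen by their counts in these same libraries, for this pattern of zero and non-zero values, so the pattern itself is given as a description with no test. The choice did not use the sex or the agent of a library.

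Zinc finger proteins of the Krüppel type fold short repeats around a zinc ion held by cysteine and histidine residues, and rows of such repeats recognise DNA. In animal genomes they often form large families that lie in runs of similar neighbouring genes. Krüppel itself is a transcription factor that patterns the Drosophila embryo. In humans ZNF711 is a transcription factor that works with the histone demethylase PHF8, and OZF is a protein made up almost wholly of zinc fingers. The names of the shrimp genes rest on likeness to such proteins, and their roles in shrimp hemocytes were not measured here. The deposited annotation gives metal ion binding for 3 of the 5 genes and no term for the other two. No sequence of these genes was used here.

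The libraries were made from hemocytes, the circulating blood cells, spun down from hemolymph of the Pacific white shrimp (Penaeus vannamei). There were 3 libraries of males given Vibrio parahaemolyticus, a bacterium that causes disease in farmed shrimp, 3 of females given Vibrio parahaemolyticus, 2 of control males (numbered 2 and 3) and 3 of control females. The labels name the treatment of every library, controls included, as immune, and give no strain, age, dose, time or pooling, nor whether the libraries of a group came from separate animals, so the p-values below measure the spread between these libraries alone. Total counts ran from 39733829 in control male 2 to 53837438 in Vibrio female 3. Of 43 genes fixed as hemocyte markers by name (penaeidins, crustins, transglutaminases and the like), 40 reached 10 counts in a library, and their summed level was 33175 to 73644 CPM (counts per 1000000 of the library total, scaled by TMM).

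No library held a value between zero and a clear count for any of the 5 genes. Of their 55 values, 21 were 0 and the rest were between 78 and 575 counts. None fell between 1 and 9 counts. A count of 0 allows up to 3 counts in that library, which is 0.0547 to 0.0868 CPM, against 1.61 CPM for the lowest non-zero value. This limit covers counting error only, since reads copied in PCR are not independent molecules. Where a gene was counted, its highest library was 1.46 times (LOC113808278) to 2.64 times (LOC113820390) its lowest in CPM. Fewer cells that express a gene and less RNA per cell cannot be told apart in such bulk libraries.

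LOC113814387 had 180, 163 and 242 counts in Vibrio males and 0 in each of 3 Vibrio females, against 106 and 0 counts in control males 2 and 3 and 238, 211 and 151 counts in control females. It was thus at 0 in every Vibrio female and in no control female or Vibrio male, while the control males were split. LOC113814398 had 506, 525 and 0 counts in Vibrio males and 0, 318 and 554 counts in Vibrio females, against 0 and 458 counts in control males 2 and 3 and 520, 575 and 481 counts in control females. Its zeros fell in Vibrio male 3, Vibrio female 1 and control male 2, so each group except the control females held both states. LOC113814388 had 139, 0 and 0 counts in Vibrio males and 82, 78 and 184 counts in Vibrio females, against 0 and 137 counts in control males 2 and 3 and 130, 137 and 129 counts in control females. It was at 0 in males alone, in 3 of 5 male libraries and 0 of 6 female ones. This split over both agents was not tested as such, and neither comparison of males and females below called the gene.

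LOC113808278 was the reverse of the others, counted in few libraries. It had 0 counts in each of 3 Vibrio males and 177, 0 and 0 counts in Vibrio females, against 149 and 0 counts in control males 2 and 3 and 247, 0 and 0 counts in control females. Replicates 1 of both female groups and control male 2 were the counted libraries. LOC113820390 had 213, 169 and 332 counts in Vibrio males and 124, 149 and 206 counts in Vibrio females, against 0 in both control males and 201, 231 and 0 counts in control females. All 6 Vibrio libraries held it, against 2 of 5 control libraries, a split over both sexes that was not tested as such.

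**Figure D1:**
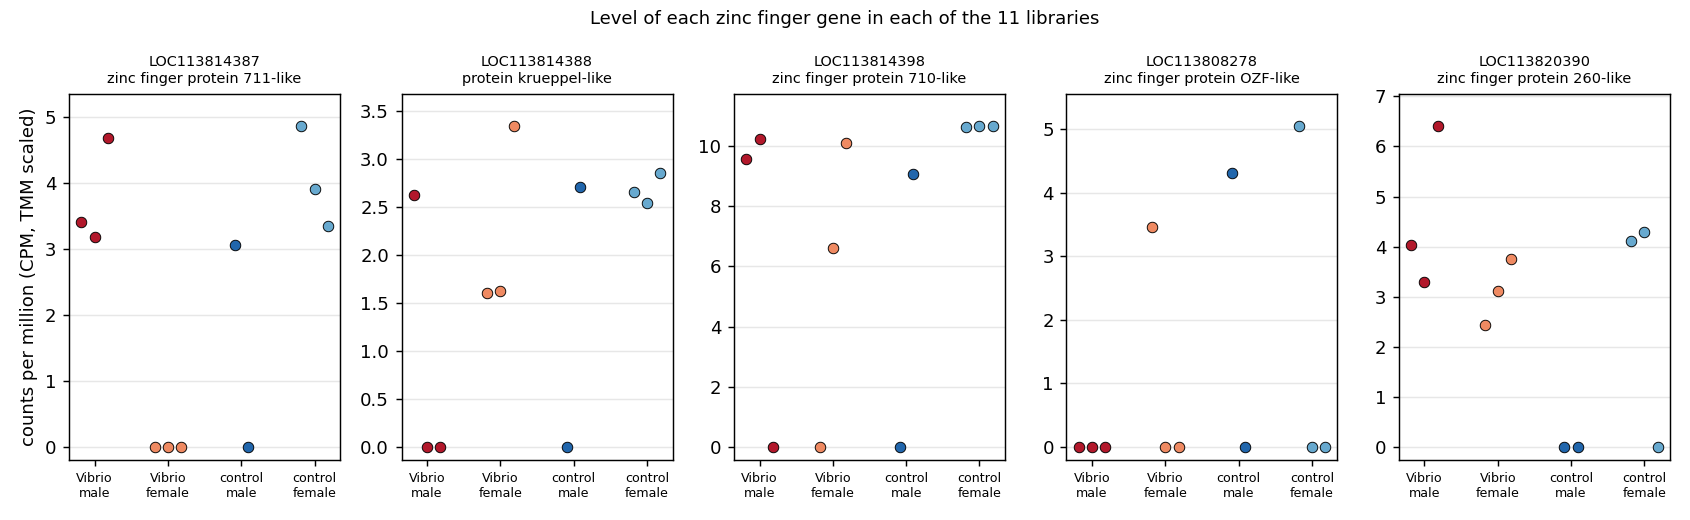
Level of each of the 5 genes in CPM (vertical axes start just under 0 and differ between panels) in the 11 libraries, 1 point per library, grouped as Vibrio males, Vibrio females, control males and control females. Points lie either at 0 or in a band well above it, and LOC113814387 is at 0 in all 3 Vibrio females while LOC113820390 is at 0 in both control males.

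Compared per length, by the deposited FPKM of the libraries with a count, LOC113814398 was the most abundant, with a median of 18.7 FPKM (11.9 to 21.3). LOC113814387 (median 5.24 FPKM, 3.88 to 7.29) and LOC113814388 (median 5.19 FPKM, 2.96 to 6.78) had overlapping ranges. So had LOC113808278 (median 2.73 FPKM, 2.58 to 3.81) and LOC113820390 (median 2.21 FPKM, 1.33 to 3.49). The order of the levels therefore separates LOC113814398 from the other 4, whose neighbours in the order do not differ beyond their spread.

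The zeros did not fall together in 1 group or 1 library. Vibrio males held 6 zeros among 15 values and Vibrio females 6 of 15, against 6 of 10 in control males and 3 of 15 in control females. Control female 1 was the one library in which all 5 genes were counted. Vibrio male 3, control male 2 and control male 3 each lacked 3 of the genes, and not the same ones. Control male 2 had the lowest total count, whereas Vibrio male 3 and control male 3 had 50469139 and 49118915 counts, within the range of the other libraries.

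The members did not share a common pattern. Over the 10 pairs, the correlation of log2 CPM (prior count 2) across the 11 libraries had a median of 0.0043 and ran from -0.51 to 0.58. It is a description over libraries that share depth and source. The highest was that of LOC113814388 and LOC113814398, which were in the same state in 9 of 11 libraries, both at 0 in Vibrio male 3 and control male 2. By Spearman's rho the highest pair was LOC113814387 and LOC113820390 (0.68, in the same state in 6 libraries), ahead of LOC113814388 and LOC113814398 (0.57). The lowest by either measure was LOC113814398 and LOC113808278, in the same state in 2 libraries. LOC113814387 matched LOC113814398 in 6 libraries and LOC113814388 in 4, although the 3 genes are close together on a scaffold.

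Few genes of the table behaved in this all-or-none way. A pattern of 0 counts in 3 or more libraries and at least 10 counts in 3 or more was met by 1170 of 18803 genes (6.22%). Of these, 943 also had a library at 1 to 9 counts, which none of the 5 genes had. With at least 50 counts in every library that was not at 0, a limit chosen after the values were seen, 21 genes (0.112%) remained, the 5 among them. The other 16 included genes with housekeeping names. LOC113821653, named as the methyltransferase subunit TRM112, which supports several methyltransferases that act on tRNA and on the translation machinery, had 0, 118 and 0 counts in Vibrio males and 184, 0 and 121 in Vibrio females, against 0 and 149 counts in control males and 95, 214 and 53 in control females. LOC113817374, named as subunit 8 of Mediator, the complex that links transcription factors to RNA polymerase II, was at 0 in 6 libraries and at 100 to 149 counts in the other 5. Their values were known when these 2 were picked. The other all-or-none genes also included uncharacterized ones and LOC113814449 (Mucin-12), and these 2 do not stand for the list. The zeros of the zinc finger genes are given here as listed values. Whether the RNA was absent in those libraries was not tested.

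**Figure D2:**
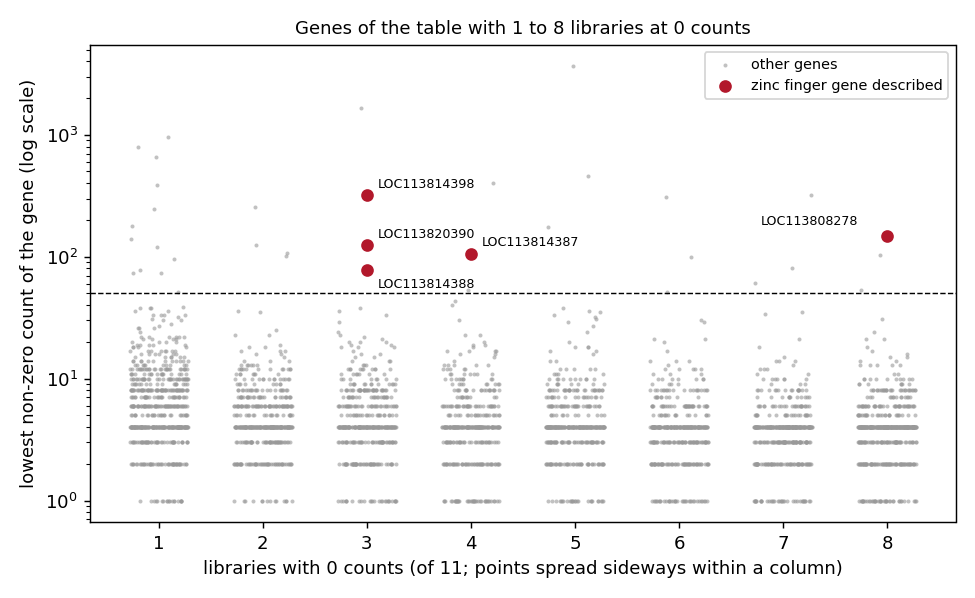
Lowest non-zero count of each gene (log axis) against the number of libraries in which it had 0 counts, for genes with 1 to 8 such libraries; the dashed line is at 50 counts. The 5 zinc finger genes lie at 78 to 318 counts, and 16 other genes with 3 or more zeros also reach the line.

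Each of the 5 genes lies close to another zinc finger gene on the same strand. For LOC113820390 there was only 1 such gene, LOC113820422. By the start and end columns of the table, LOC113814387, LOC113814398 and LOC113814388 lie on the minus strand within 6314 bases of 1 scaffold, with LOC113814386 (zinc finger protein 467-like) as the only other gene in that stretch. LOC113814398 overlaps LOC113814386 by 164 bases, and LOC113814388 overlaps its other end by 118 bases. LOC113814397 and LOC113814385, both named zinc finger and BTB domain-containing protein 17-like after a partner of the Myc transcription factor in mammals, flank the stretch at 310 bases from LOC113814387 and 180 bases from LOC113814388. LOC113808278 lies on another scaffold, 20 bases after LOC113808277 (zinc finger protein 70-like) and 48 bases before LOC113808279 (flt3-interacting zinc finger protein 1-like). LOC113820390 lies wholly inside LOC113820422, which carries the same name, so that all of its span of 1868 bases is shared. These columns give the span of a gene, and overlap of exons was not tested. The 5 genes span 684 to 1868 bases. The sources used here do not name the genome build of the table, so scaffold positions are not printed.

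Same-strand overlap, given here as a description, held for 3 of 5, against 66 of 494 other genes with zinc finger in their name (13.4%) and 1010 of all 18803 (5.37%). A same-strand gene lay within 400 bases of 5 of 5, of 118 of the 494 (23.9%) and of 1902 of all genes (10.1%). The limit of 400 bases was not part of the planned design. It lies above the widest such gap of the 5 genes (310 bases, LOC113814387), so 5 of 5 follows from it. LOC113814387, LOC113814398 and LOC113814388 share a stretch and are not independent cases. Of the 16 other all-or-none genes, 1 overlapped a same-strand gene and 7 had one within 400 bases. The sources used here name neither the strand setting nor the counting program, and reads in shared bases may have gone to either gene of a pair. The values of LOC113814388, LOC113814398 and LOC113820390 are uncertain to that extent. Shared were 118 of 721 bases, 164 of 684 and all 1868, in that order. Krueppel-like is the name of 19 genes in the table, OZF-like of 23 and zinc finger protein 260-like of 5, and reads shared between such relatives could also be split among them.

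**Figure D3:**
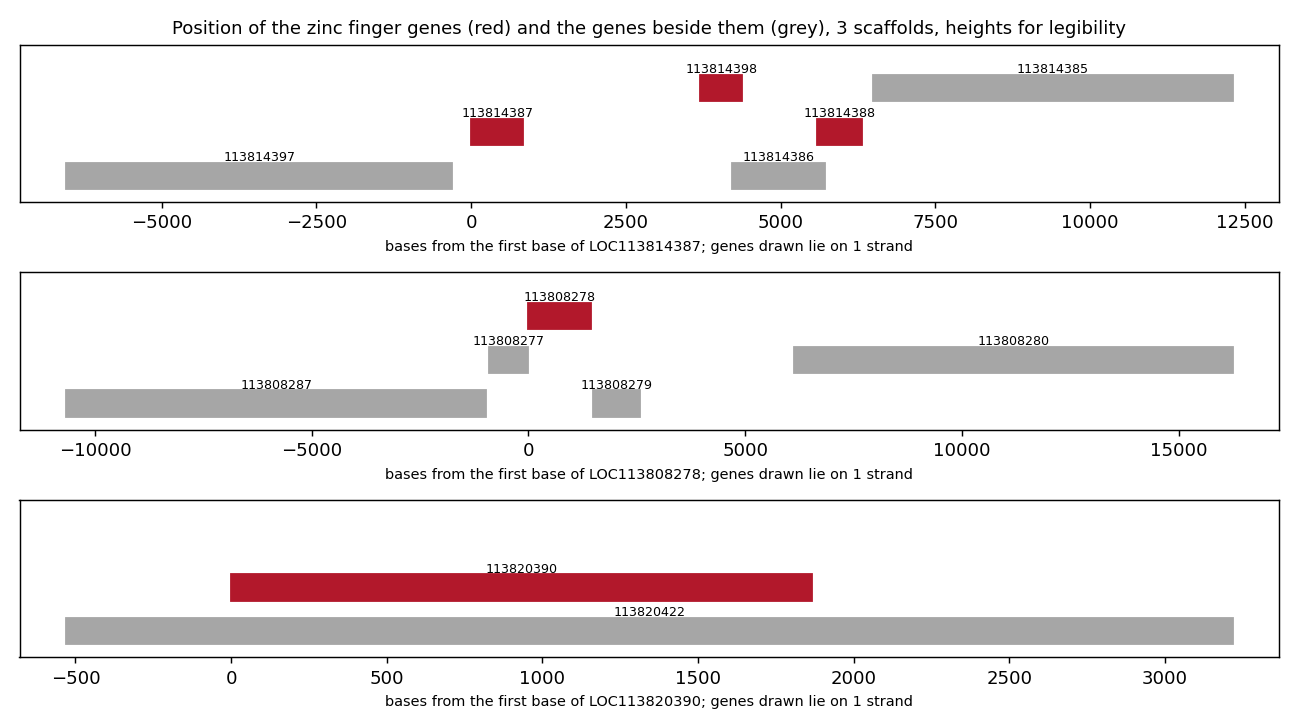
Spans of the 5 zinc finger genes (red) and of the genes beside them (grey) on 3 scaffolds, drawn to scale within each panel in bases from the first base of the gene named under it; height has no meaning. LOC113814398 and LOC113814388 each overlap LOC113814386, LOC113808278 fills the gap between close neighbours, and LOC113820390 lies inside LOC113820422.

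Most genes next to the 5 were counted in every library. With up to 2 nearest genes on each side (LOC113820390 has none after it on its scaffold) there were 11 distinct neighbours outside the set, of which 6 carry zinc finger in their name. Of the 11, 7 had at least 10 counts in all 11 libraries. LOC113808277 and LOC113808279, on either side of LOC113808278, had 37 to 143 and 56 to 136 counts, also in the 8 libraries in which LOC113808278 was at 0. LOC113814397 had 224 to 422 counts and LOC113814385 3368 to 6773. Further off, LOC113814389 (protein catecholamines up-like, after a Drosophila regulator of catecholamine synthesis) had 1729 to 3617 counts, and LOC113808287 and LOC113808280, both uncharacterized, had 172 to 723 and 389 to 1121. LOC113814396 (NCK-interacting protein with SH3 domain-like), with at most 7 counts and 0 in 7 libraries, and LOC113820412 (acetylcholine receptor subunit alpha-like 1), with at most 4 counts and 0 in 9, were hardly counted at all.

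The other 2 neighbours, LOC113814386 and LOC113820422, are those that overlap the zinc finger genes, and both were at 0 in Vibrio male 3 and in no other library. LOC113814386 had 736, 638 and 0 counts in Vibrio males and 620, 389 and 723 in Vibrio females, against 408 and 520 counts in control males and 779, 687 and 542 in control females. In Vibrio male 3, LOC113814398 and LOC113814388 were at 0 as well, while LOC113814387 had 242 counts, its highest count. LOC113820422 had 518, 472 and 0 counts in Vibrio males and 410, 354 and 548 in Vibrio females, against 247 and 309 counts in control males and 626, 333 and 377 in control females. LOC113820390, inside it, had its highest count, 332, in that same library. In no library were both genes of this nested pair at 0.

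**Figure D4:**
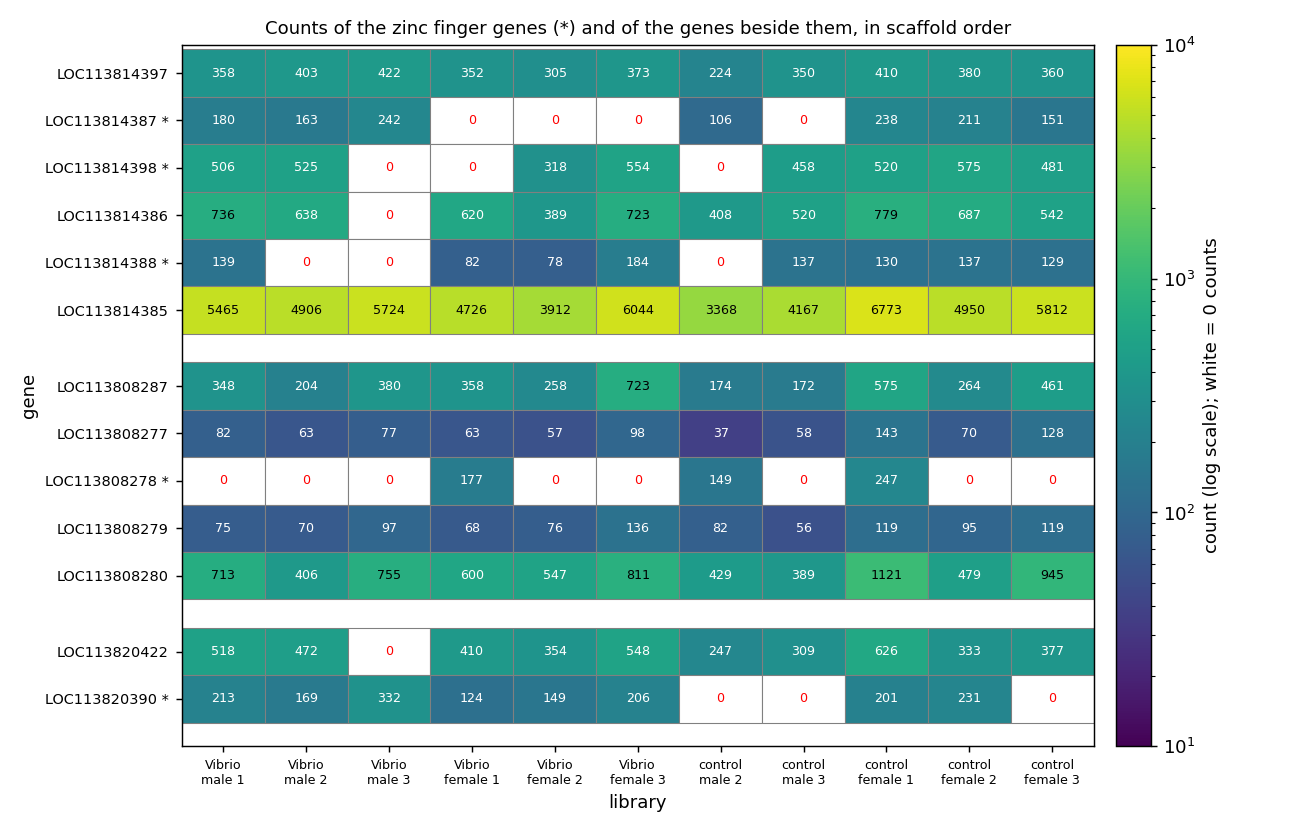
Counts of the 5 zinc finger genes (marked with an asterisk) and of 8 genes beside them, in scaffold order, in the 11 libraries; colour gives the count on a log scale and white marks 0. Of the unmarked rows drawn, LOC113814386 and LOC113820422 have a 0, both in Vibrio male 3; LOC113814396 and LOC113820412, at 0 in 7 and 9 libraries, are not drawn.

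The 494 other zinc finger genes are those left once the 5 had been chosen for this pattern, so the choice itself makes it rarer among them. Of the 494, 356 had at least 10 counts in all 11 libraries and 5 had no count. In 13 (2.63%), against 6.22% of all 18803 genes, there were 0 counts in 3 or more libraries with 10 or more in at least 3. None of the 13 kept above 50 counts in every library not at 0. Among all 498 genes with zinc finger in their name, 4 of the 5 were thus the only all-or-none ones. LOC113825567 (zinc finger protein 737-like) had 63, 0 and 53 counts in Vibrio males and 0, 58 and 74 in Vibrio females, against 30 and 31 counts in control males and 0, 61 and 0 in control females. LOC113804755 (zinc finger protein 536-like) had 62, 0 and 40 counts in Vibrio males and 0, 48 and 48 in Vibrio females, against 14 and 42 counts in control males and 0 in each of 3 control females. Both overlap a same-strand gene. The others with the highest level were LOC113818198, LOC113814286 and LOC113808794. LOC113818198 (zinc finger Y-chromosomal protein 2-like) had 228 counts in Vibrio female 3 and at most 23 elsewhere. LOC113814286 (zinc finger protein GLIS1) had at most 71, and LOC113808794 (zinc finger protein 665-like) at most 41. Just short of the choice made here were 3 zinc finger genes at 0 in a single library and above 50 counts elsewhere: LOC113814386, LOC113820422 and LOC113804868 (gastrula zinc finger protein XlCGF8.2DB-like, 0 in control female 2 and 120 to 440 counts elsewhere). All 3 overlap a same-strand gene.

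Among 13806 genes with at least 10 counts in 3 or more libraries, those most like each of the 5 by correlation of log2 CPM over the 11 libraries lay on other scaffolds. LOC113818900 (putative protein SpAN-like, r = 0.89) was at 0 in the same 4 libraries as LOC113814387, with at most 29 counts. The closest to LOC113814398 was LOC113808476 (uncharacterized, r = 0.90), which had 51 to 158 counts and was at 0 in no library. Next came LOC113819848 (uncharacterized, r = 0.86), at 0 in the same 3 libraries as LOC113814398, with at most 66 counts. LOC113807737 (E3 ubiquitin-protein ligase TRIM23-like, r = 0.95 with LOC113814388) had 9 to 18 counts where that gene was at 0 and 42 to 129 where it was counted. LOC113821996 (disrupted in renal carcinoma protein 2-like, r = 0.91 with LOC113820390) had 9 to 15 counts against 34 to 62. For LOC113808278 the closest was LOC113830033 (extracellular sulfatase Sulf-1-like, r = 0.86), which had at least 5806 counts in every library. Each r is among the 3 highest of 13806 genes over 11 libraries and is a description only. Also named by this rule were LOC113804084 and LOC113807868 for LOC113814387 (r = 0.88 and 0.87), and LOC113823184 and LOC113818367 for LOC113814388 (0.88 and 0.87). For LOC113814398 there was LOC113825349 (0.86), for LOC113808278 LOC113830236 and LOC113827574 (0.83 and 0.83), and for LOC113820390 LOC113818252 and LOC113824601 (0.89 and 0.87).

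Vibrio females were set against control females to ask whether the bacterium goes with another level. LOC113814387 averaged 0 CPM in Vibrio females and 4.05 CPM in control females, at least 69.0-fold lower against a limit of 3 counts per library. The size of this bound, and of those below, follows in part from the choice of the genes. The tests below likewise use the counts by which the genes were chosen. Their lowest non-zero counts were 26 (LOC113814388) to 106 (LOC113814398) times that limit. LOC113814398 also did not overlap, with 0 to 10.1 CPM in Vibrio females and 10.6 to 10.7 CPM in control females, and its edgeR log2 fold change was -0.94 with SE 1.93 (-0.35 without Vibrio female replicate 1 and -1.69 without Vibrio female replicate 3). Such separation of 3 libraries from 3 was met by 2 of the 5 genes and by 6.38% of the 14295 genes tested. After adjustment over all genes, edgeR's quasi-likelihood test called 0 of the 5 (0% of genes tested were called), with adjusted p of 0.986 to 0.996. At an unadjusted p under 0.05 it had 1 of the 5, LOC113814387, and 579 of all genes. DESeq2 called LOC113814387 (adjusted p = 3.61e-05), among 0.148% of the genes for which it gave an adjusted p, and gave neither a p nor an adjusted p for LOC113808278 and LOC113814388 in any of the 5 contrasts, so its calls are out of 3 of the 5 genes. edgeR also called LOC113814387 without control male replicate 2 (adjusted p = 0.0124) or 3 (adjusted p = 0.00757), the gene being the 1 called of 15146 (0.0066%) and of 14933 (0.0067%). The control males were the only group with both a zero and a clear count of this gene, so those fits leave no group with both, and the single control male left takes its spread from the rest. Over all alternatives the adjusted p ran from 3.61e-05 to 1. Hepatopancreas and muscle marker levels overlapped between these groups. Hemocyte marker levels (38143 to 42714 CPM in Vibrio females, 33881 to 73644 CPM in control females) and total counts of these 2 groups overlapped.

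In males the same question rested on 3 Vibrio libraries against 2 control libraries. LOC113820390 averaged 4.58 CPM in Vibrio males and 0 CPM in control males, at least 62.7-fold higher. LOC113814387 did not overlap either, with 3.18 to 4.68 CPM in Vibrio males and 0 and 3.07 CPM in control males. With so few libraries, 24.8% of the genes tested did not overlap, so 2 of the 5 genes is close to what the table gave. In edgeR's quasi-likelihood test 0 of the 5 were called (0% of genes), with adjusted p of 0.933 to 0.974, and at an unadjusted p under 0.05 there were LOC113820390 and 345 of all genes. DESeq2 called LOC113820390 (adjusted p = 0.00115, 0.0776% of genes called). edgeR called it without control female replicate 3 (adjusted p = 0.0136, 0.00704% of genes called), the one library at 0 in a group that also held clear counts, and over all alternatives the adjusted p ran from 0.00115 to 1. The muscle markers, 82 genes of which 60 reached 10 counts, summed to 6017 to 7359 CPM in Vibrio males and 5345 to 5368 CPM in control males, and total counts were 49451523 to 51449309 in Vibrio males and 39733829 and 49118915 in control males. The part of either in this result was not tested. LOC113808278 was at 0 in all Vibrio males, against 4.31 and 0 CPM in control males 2 and 3.

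Males and females were compared within each agent, using the same libraries again. With Vibrio, LOC113814387 averaged 3.75 CPM in males and 0 CPM in females, at least 64.0-fold higher, and was the 1 gene of the 5 whose groups did not overlap, against 7.76% of genes tested. In controls, LOC113820390 averaged 0 CPM in males and 2.80 CPM in females, of which control female 3 was also at 0. LOC113814387 (0 and 3.07 CPM in control males, 3.35 to 4.87 CPM in control females) and LOC113814398 (0 and 9.06 CPM in control males, 10.6 to 10.7 CPM in control females) did not overlap, and neither did 21.3% of genes tested. By edgeR's quasi-likelihood test 0 of the 5 were called in either comparison (0% of genes in each), with an adjusted p of 1 for each with Vibrio and of 0.756 to 0.983 in controls. Unadjusted p under 0.05 were those of LOC113814387 with Vibrio, among 486 genes, and of LOC113820390 in controls, among 698 genes. DESeq2 called LOC113814387 with Vibrio (adjusted p = 2.59e-05, 0.0935% of genes called) and LOC113820390 in controls (adjusted p = 0.00732, 0.0705% of genes called). Without control male replicate 2 or 3, edgeR called LOC113814387 with Vibrio (adjusted p = 0.0131 and 0.00797, with 0.0066% and 0.0067% of genes called), and without control female replicate 3 it called LOC113820390 in controls (adjusted p = 0.0165, 0.00704% of genes called). Over all alternatives the adjusted p reached 1 for both.

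A further contrast subtracted the Vibrio effect in females from that in males, and all 4 groups enter it again. LOC113814387 had a log2 fold change of -10.64 (SE 2.17) with Vibrio in females and of 1.30 (SE 1.42) with Vibrio in males. The first is a fitted value against libraries at 0 and depends on the prior count. The second rests on control males at 106 and 0 counts: leaving out control male 2 gave 10.58, and leaving out control male 3 gave 0.30. The difference was 11.94 (SE 2.76), and 21.26 without control male replicate 2, both fitted against libraries at 0. LOC113820390 overlapped between the groups in females, with 2.43 to 3.75 CPM in Vibrio females and 0 to 4.29 CPM in control females. The quasi-likelihood test of edgeR for the difference called 0 of the 5 genes (0% of genes), with adjusted p of 0.740 to 0.985, and at an unadjusted p under 0.05 there were LOC113814387, LOC113820390 and 800 of all genes. DESeq2 called both, at adjusted p of 0.00181 and 0.0220, among 0.197% of genes. edgeR called LOC113814387 without control male replicate 2 (adjusted p = 0.0222, 0.0066% of genes called) and LOC113820390 without control female replicate 3 (adjusted p = 0.0222, 0.00704% of genes called), and the highest adjusted p of any alternative was 0.994 for each.

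Of the other zinc finger genes, 431 were tested. edgeR called none in any of the 5 contrasts, and DESeq2 called 1, lower with Vibrio in females (adjusted p = 0.0496), where it called 0.148% of genes. At an unadjusted p under 0.05, edgeR had 16 of the 431 with Vibrio in females, against 579 of all 14295 genes tested. It had 3 with Vibrio in males, against 345, and 17 for the difference between these effects, against 800. For males against females it had 8 with Vibrio, against 486, and 17 in controls, against 698. The median log2 fold change of the 431 was -0.13 with Vibrio in females, against 0.05 over all genes tested, and 0.12 with Vibrio in males, against -0.03. For males against females it was -0.15 in controls, against -0.02, and 0.05 with Vibrio, against -0.09. For the difference between the Vibrio effects it was 0.28, against -0.08.

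The RefSeq gene table of assembly ASM4276789v1, used for identifiers alone, shared 12909 of the 18803 identifiers. That table held 0 of the 5 genes, 4 of their 11 neighbours and 273 of the other 494 zinc finger genes (55.3%), against 8059 of the 10937 genes with at least 10 counts in every library (73.7%).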

How the data were processed

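RNA-seq of hemocytes gave 1 deposited table with a count and an FPKM value per gene for each of 11 libraries. The deposited counts are whole numbers with a different total in each library and were taken as raw counts. The deposited FPKM values are scaled for gene length and depth by the authors, per the file headers. The tools named in the submitters' processing notes are cutadapt 1.9 and FastQC. The sources used here do not give the aligner, the counter, the build, the annotation or the strandedness of counting.

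The tests used edgeR 4.0.16 (R 4.3.3) on these counts: filterByExpr (14295 genes kept), TMM scaling, a robust quasi-likelihood fit of 4 group means to all 11 libraries, 5 two-sided contrasts, and Benjamini-Hochberg adjustment over genes, called under 0.05. The SE was obtained from the log2 fold change and the root of its F statistic. Off means 0 counts and on means 10 or more. The alternatives were DESeq2 1.42.0, RLE size factors, no filter, a replicate block and each library left out.

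Named genes were the 5 genes, the 2 nearest genes on each side, the 3 most correlated genes for each, and the 5 most abundant other zinc finger genes with the pattern. Genes and lists were chosen with earlier results of these data known. No 2 libraries of a group agreed within sampling noise (chi-square over its degrees of freedom 118 to 536), so none was taken as a duplicate. CPM are counts per 1000000 of the TMM-scaled total.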

Additional observations from a re-analysis of the deposited data

Results flagged for a closer look

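DESeq2's test of the difference in Vibrio effect between the sexes called LOC113814387 (adjusted p = 0.00181). It was not called by edgeR's quasi-likelihood test (adjusted p = 0.740). Its counts were 180, 163 and 242 in Vibrio males and 0 in each Vibrio female. In controls they were 106 and 0 in males and 151 to 238 in females. Its edgeR log2 fold change with Vibrio in males was 1.30 (SE 1.42). This moved to 10.58 without control male replicate 2 and to 0.30 without control male replicate 3. LOC113820390 was also called by DESeq2 (adjusted p = 0.022) and not by edgeR (adjusted p = 0.740). Its counts were 169 to 332 in Vibrio males and 124 to 206 in Vibrio females. In controls they were 0 in both males and 0 to 231 in females. Both genes were chosen for zeros beside clear counts, and these tests used the same counts. Dixon's check of the highest and lowest library was not applied to groups of 2 or 3.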

How the results depend on the processing

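edgeR called 0 of the 5 genes in each of 5 contrasts, and so it did with RLE size factors, with no filter and with the replicate block (0 in each). DESeq2, which gave a p for 3 of the 5, called 1 in each of the 4 comparisons of groups and 2 for the difference between the sexes, where it called 0.0705% to 0.197% of genes. Leaving out a library gave 0 to 1 in each contrast (0.0066% to 0.00704% of genes called where it gave 1); the libraries that gave 1 were control male 2 (3 contrasts), control male 3 (2 contrasts) and control female 3 (3 contrasts). Same-numbered libraries of different groups correlated over 0.1 in 5 of 15 pairs, with a median of 0.024. Differently numbered ones did so in 11 of 30, with a median of 0.01. These are correlations of deviations from group means, which cancel within groups of 2 or 3, so they cannot exclude that the numbers pair the libraries. The 8 log2 fold changes recomputed, LOC113814387 in 4 contrasts, LOC113820390 in 3 and LOC113814398 with Vibrio in females, kept their sign under each alternative; the last, and that of LOC113814387 with Vibrio in males, were added after seeing the data. Taking 3 counts or fewer as off, or 5 or 20 counts as on, left every count of libraries for the 5 genes as it was. It could not do otherwise, since their lowest non-zero value was 78 counts. Over the table, the number of genes with the pattern was 1909 with 5 counts as on and 537 with 20 counts, against 1170, and 914 to 1052 when a library was left out. The number of all-or-none genes was 60 with 20 counts in place of 50 and 14 with 100, against 21, and 18 to 24 when a library was left out. The lowest correlation between 2 of the 5 genes was -0.24 by Spearman's rho in place of -0.51, and -0.76 to -0.36 when a library was left out. The highest was 0.43 to 0.81 and the median -0.10 to 0.05. A 0 allows up to 3 counts at these depths.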

Other observations

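In all, 13 genes of the table were at 0 in a single library and at 50 counts or more in each of the others, and 6 of them overlap a same-strand gene. Vibrio male 3 and control female 2 held 4 each, of which 3 in Vibrio male 3 overlap a same-strand gene: LOC113814386, LOC113820422 and LOC113807108 (guanine nucleotide-binding protein subunit beta-like protein 1), which had 0 counts there and 796 to 1277 elsewhere. LOC113818468 (60S ribosomal protein L35-like, a protein of the large ribosomal subunit) had 0 counts in control female 3 and 73 to 3527 elsewhere. LOC113814449 (Mucin-12), at 0 in 5 libraries, and LOC113801831 (porwaprin-a-like), at 0 in 3, were the most highly counted all-or-none genes, at 3640 to 12144 and 1672 to 10685 counts elsewhere. The values of these genes were known when they were picked.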
